A study of Mus musculus with 7 samples.

Results

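The genes described here are 46 chemokines, cytokines, their receptors and components of NF-kB signalling, taken by name, in livers of mice 8 h after an injection of carbon tetrachloride (CCl4), a hepatotoxin. Of the 46, 42 had a row in the deposited table of 14851 genes, and 35 of these reached the mean of 10 normalised counts that the test required. *Ccl12*, *Il6*, *Il10* and *Osm* were not analysed here, and *Ccl3*, *Ccl4*, *Ccr1*, *Cxcr2*, *Ackr3*, *Tnf* and *Lif* were too low to test. RNA-seq of whole liver compared 4 *Albumin-Cre; p53FL/FL* mice (FL), in which Cre deletes the floxed *Trp53* alleles, with 3 *Albumin-Cre; p53WT/WT* mice (WT), whose hepatocytes express Cre too but have no floxed allele. The *Albumin* promoter drives Cre in hepatocytes, so endothelial, Kupffer, stellate and infiltrating cells of FL livers keep *Trp53*. All mice were backcrossed C57BL/6J males of about 70 days, of which some in each genotype carried a *Rosa26* LSL-tdRFP reporter that the labels do not assign to single livers, and each received 1 intraperitoneal dose of 1 mL/kg of a 20% CCl4 solution in corn oil. No liver without CCl4 was analysed here, so the values describe genotypes after injury and not the response to injury. In the source names, all 3 WT mice share 1 prefix and the FL mice have 2 others. What the prefix marks is not stated, and it cannot be told apart from the genotype.

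Chemokines are small secreted proteins that guide leukocytes along a gradient. CC chemokines such as *Ccl2* mainly recruit monocytes and T cells, the ELR-bearing CXC chemokines *Cxcl1* and *Cxcl2* recruit neutrophils through *Cxcr2*, and *Cxcl9* and *Cxcl10* are induced by interferon. In injured liver, tumour necrosis factor and interleukin-1 from Kupffer cells activate NF-kB in hepatocytes and sinusoidal cells. Active NF-kB transcribes chemokines, adhesion molecules such as *Icam1* and *Vcam1*, and its own inhibitors *Nfkbia* and *Tnfaip3*.

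None of the 35 tested genes differed between FL and WT livers past a Benjamini-Hochberg adjusted p of 0.05 in limma, and the smallest adjusted p among them was 0.999. At that threshold 0.0159% of the 12545 genes tested were called, and *Trp53* itself was 1 of the 2. The study's own count model, DESeq2, called more genes than this between the same genotypes. At an unadjusted p under 0.05, only *Il1a* of the 35 passed (2.86%), against 3.2% of all genes tested. In none of the 35 did the 4 FL values lie wholly on 1 side of the 3 WT values, where 4.76% of all genes tested did. The fitted change was higher in FL for 14 genes and lower for 21, with a median of -0.13 on the log2 scale beside 0.01 over all genes tested. For 14 of the 35 the 95% interval of the fold change lay within 2-fold in either direction, and for the other 21 it reached beyond, so that a change of that size is not excluded for them.

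The check of the labels held in every liver. *Trp53*, which encodes p53, had 131, 130, 217 and 110 normalised counts in FL livers 1 to 4 and 876, 688 and 831 in WT livers 1 to 3. All FL livers were thus below all WT livers, and limma gave a log2 difference of -2.47 ± 0.23 (SE) and an adjusted p of 0.0447. Estimated depth ran from 11.9 to 19.5 M reads. WT replicate 2 and FL replicate 3 stood apart from the other livers of their genotypes, and many of the genes below were highest or lowest in them. Both were above all 5 other livers for 23.9% of the genes tested and below all 5 for 25.8%. Hepatocyte genes led in every liver, with *Alb* between 956556 and 1511638 normalised counts.

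**Figure D1:**
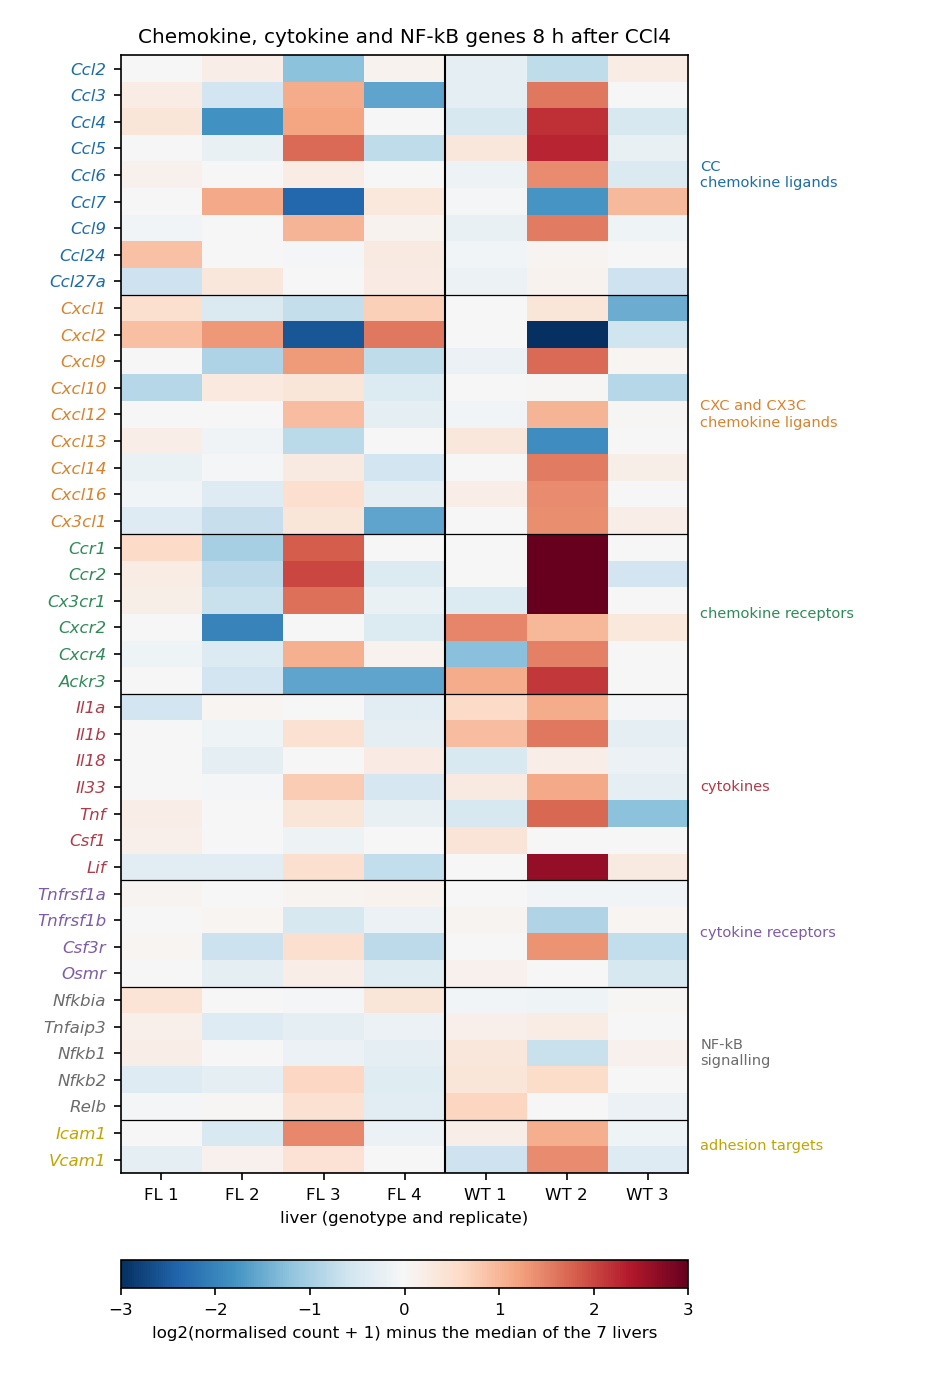
Heat map of the 42 chemokine, cytokine and NF-kB genes (rows, grouped by role) in the 7 livers (columns, FL left of the line, WT right), coloured by log2(normalised count + 1) minus the median of the 7 livers, with the colour scale ending at 3 in either direction. WT replicate 2 is the darkest column and FL replicate 3 follows it, red for most chemokine receptors and CC ligands and blue for *Cxcl2*, *Ccl7* and *Ccl2*.

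Levels between genes were compared per kilobase of exon, as the mean of the 7 livers. *Tnfrsf1a*, the main receptor for tumour necrosis factor, was highest at 975 normalised counts per kb. *Cxcl12* (421 per kb), a stromal chemokine, and *Nfkbia* (420 per kb), which encodes the NF-kB inhibitor IκBα, came next, and *Tnfrsf1b*, the other receptor for tumour necrosis factor, had 314 per kb. The macrophage chemokines *Ccl9* and *Ccl6* led the CC ligands with 157 and 139 per kb, and *Cxcl10*, *Cxcl9*, *Cxcl1* and *Cxcl2* lay close together at 114, 102, 95.4 and 93.0 per kb. At the other end, the leukocyte receptors *Cxcr2* (1.36 per kb), *Ccr1* (1.41 per kb), *Cx3cr1* (3.87 per kb) and *Ccr2* (4.10 per kb) were scarce, as was *Tnf* at 4.71 per kb. Of the 41 pairs of neighbours in this order, 40 had overlapping ranges over the 7 livers.

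**Figure D2:**
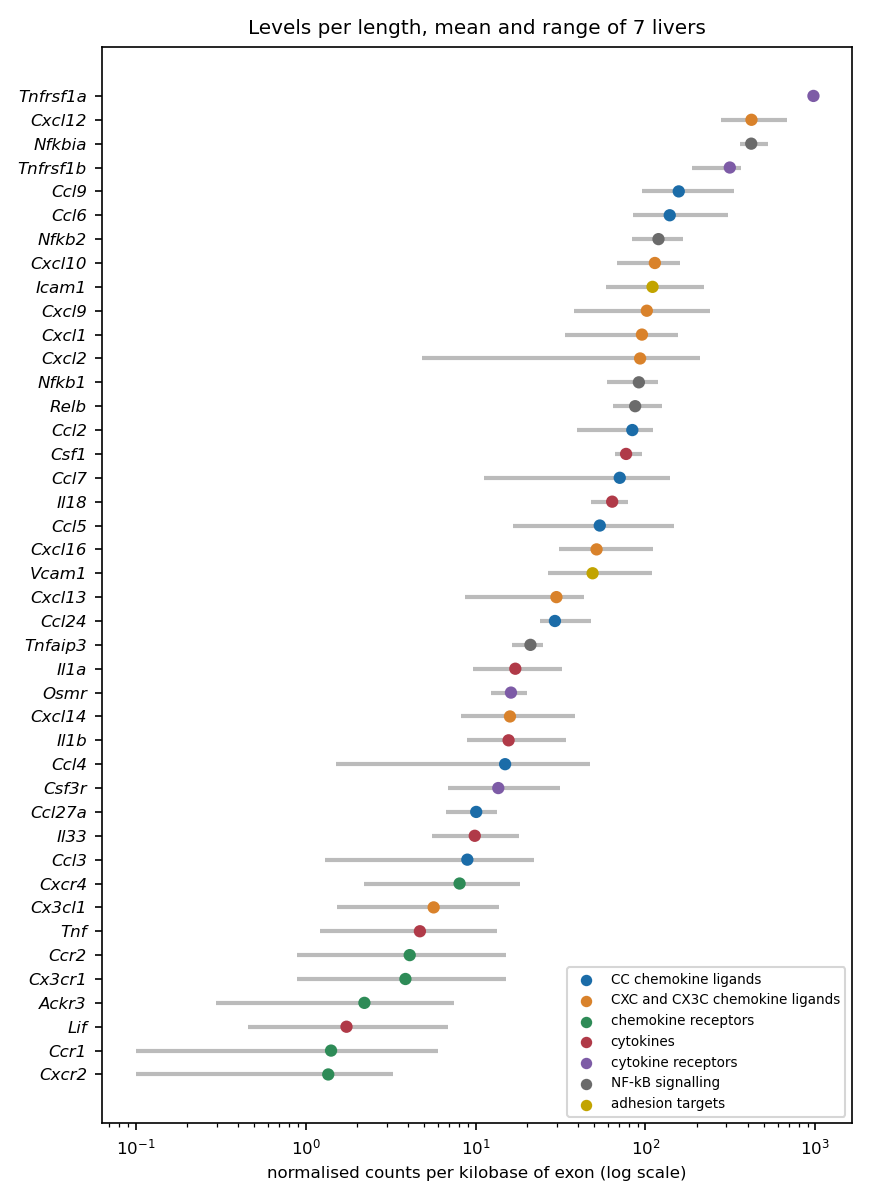
Normalised counts per kilobase of exon (log scale) for the 42 genes, with the mean of the 7 livers as a point coloured by role and the lowest to highest liver as a grey bar, where a count of 0 is drawn at 0.1. Receptors for tumour necrosis factor, *Cxcl12* and *Nfkbia* are at the top and leukocyte receptors at the bottom, and *Cxcl2*, *Ccl4* and the leukocyte receptors have some of the longest bars.

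Among the CC ligands, 7 were tested, 4 of them higher and 3 lower in FL, with a median log2 fold change of 0.03 and 0 called. *Ccl2* (chr11:82035571-82037453), the main attractant of CCR2-bearing monocytes, had 107, 122, 45 and 115 normalised counts in FL livers and 89, 63 and 126 in WT livers. FL replicate 3 was lowest and WT replicate 2 next lowest, and the genotypes overlapped. The limma log2 fold change was 0.03 ± 0.39 (SE), with a 95% interval of 0.546 to 1.90-fold. *Ccl7*, which lies 8.26 kb from *Ccl2* and also draws monocytes, showed the same pair of low livers more sharply, with 50, 112, 9 and 63 in FL and 49, 14 and 99 in WT. Its interval was wide, from 0.246 to 4.39-fold. The remaining CC ligands mostly pointed the other way in those livers. *Ccl5*, a T cell and natural killer cell attractant, had 28, 24, 93 and 16 normalised counts in FL and 36, 141 and 24 in WT. *Ccl9* had 326, 343, 697 and 370 in FL and 292, 1008 and 313 in WT. For both genes WT replicate 2 was highest and FL replicate 3 second, while the other 5 livers lay close together. *Ccl6* was raised in WT replicate 2 alone, with 547 against 152 to 237 in the other 6 livers. The low genes *Ccl3* and *Ccl4*, which lie 13.2 kb apart, reached 17 and 31 normalised counts in WT replicate 2 and 12 and 15 in FL replicate 3, and stayed at 8 or fewer elsewhere. *Ccl24*, an eosinophil attractant, and *Ccl27a* ranged from 31 to 62 and from 16 to 32, with neither liver apart. Of the *Ccl27a* exon sequence, 53.3% of 36-base stretches occur in other genes, among them *Ccl27b*, so its value is uncertain.

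Of the 9 CXC and CX3C ligands, all were tested, 4 higher and 5 lower in FL, with a median log2 fold change of -0.16 and 0 called. *Cxcl2*, a neutrophil attractant induced by NF-kB, had the largest fitted change of any of the 35 genes. It had 274, 361, 24 and 436 normalised counts in FL livers (mean 274 ± 179, SD, n = 4) and 146, 10 and 96 in WT livers (84.0 ± 68.8, SD, n = 3). FL replicates 1, 2 and 4 were above every WT liver, FL replicate 3 was below WT replicates 1 and 3, and WT replicate 2 was lowest of all. The log2 fold change was 1.75 ± 1.20 (SE) with an unadjusted limma p of 0.182, an interval of 0.495 to 22.9-fold and an exact permutation p of 0.343. Of its exon sequence, 6.85% of 36-base stretches also occur in *Cxcl3*. *Cxcl1*, 10.8 kb away and with the same receptor, had 248, 132, 108 and 292 in FL and 178, 231 and 63 in WT. Here FL replicate 3 was again the lowest FL liver, but WT replicate 2 was the highest WT liver, and the genotypes overlapped (log2 fold change 0.38 ± 0.51, SE).

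Sequence before the start sites of this neighbouring pair is shown because both genes carry an identical match to the NF-kB consensus. Whether the match has a part in their values was not tested. *Cxcl10* is shown beside them for comparison. RefSeq (GRCm38.p6) gave at least 1 promoter for 35 of the 46 genes. The NF-kB consensus, searched on both strands in the 250 bases before the start site, matched a promoter of 12 of these 35 genes (34.3%) and of 8.23% of all 27025 genes with a promoter. Capitals mark the matches in the 180 bases before each start, and overlapping matches run together.
Cxcl1 (chr5:90891065-90891244, plus strand): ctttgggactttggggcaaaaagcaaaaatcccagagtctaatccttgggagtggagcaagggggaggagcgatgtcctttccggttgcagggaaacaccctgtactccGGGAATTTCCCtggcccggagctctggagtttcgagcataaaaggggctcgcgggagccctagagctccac
Cxcl2 (chr5:90903719-90903898, plus strand): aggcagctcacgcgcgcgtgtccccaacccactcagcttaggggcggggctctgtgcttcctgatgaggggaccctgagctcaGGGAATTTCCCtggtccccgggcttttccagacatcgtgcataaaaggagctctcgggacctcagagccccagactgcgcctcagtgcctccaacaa
Cxcl10 (chr5:92348890-92349069, minus strand): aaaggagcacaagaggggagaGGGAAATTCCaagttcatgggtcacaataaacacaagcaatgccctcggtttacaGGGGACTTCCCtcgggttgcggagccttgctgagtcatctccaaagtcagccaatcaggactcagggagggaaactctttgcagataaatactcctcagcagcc
Counted back from the start site, the first matching base was at -71 in *Cxcl1* and at -97 in *Cxcl2*, and the longest identical stretch of the 2 promoters, 14 bases, begins at these matches. *Cxcl10* held matches beginning at -159, -104 and -103. The motif TGANTCA, a looser form of the AP-1 consensus that allows any middle base, matched a promoter of 8 of the 35 genes (22.9%, against 7.82% of all genes with a promoter). In *Ccl9* and *Nfkb2* the match read TGAATCA. *Cxcl10* was among the 8, and its match overlapped no NF-kB match. A match describes letters in this window and not binding.

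*Cxcl10*, a ligand of CXCR3 on T cells, had 154, 346, 359 and 212 normalised counts in FL and 281, 286 and 154 in WT. The lowest FL and the lowest WT liver had the same value, and the log2 fold change was 0.13 ± 0.35 (SE). *Cxcl9*, 18.6 kb from it and acting on the same receptor, spread more, with 221, 115, 540 and 130 in FL and 196, 719 and 231 in WT. WT replicate 2 and FL replicate 3 were its 2 highest livers, which was not so for *Cxcl10*, where FL replicate 2 ranked between them. *Cxcl12*, which retains CXCR4-bearing cells, had 2772, 2757, 5229 and 2286 in FL and 2609, 5604 and 2835 in WT. Those livers again stood well above the other 5, and the genotypes overlapped (log2 fold change -0.16 ± 0.35, SE). *Cxcl13*, a B cell attractant, went the opposite way, at 22 and 10 in FL replicate 3 and WT replicate 2 and at 36 to 50 elsewhere.

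The membrane-bound chemokine *Cx3cl1*, the ligand of CX3CR1, had the largest fitted decrease of the tested genes. Its normalised counts were 15, 12, 26 and 6 in FL livers (14.8 ± 8.38, SD, n = 4) and 20, 54 and 23 in WT livers (32.3 ± 18.8, SD, n = 3). FL replicates 1, 2 and 4 were below all WT livers and FL replicate 3 was above WT replicates 1 and 3. The log2 fold change was -1.10 ± 0.53 (SE), with a limma p of 0.0723 before adjustment and an interval of 0.198 to 1.09-fold. *Cxcl14*, a chemokine of epithelia, had 20, 22, 28 and 15 in FL and 23, 70 and 26 in WT. FL replicate 3 was the only FL liver above 23, the lowest WT value (log2 fold change -0.72 ± 0.42, SE, interval 0.309 to 1.20-fold). *Cxcl16* had 94 to 177 in FL and 143, 335 and 124 in WT, and its log2 fold change of -0.61 ± 0.37 (SE) was also short of the threshold. *Cxcl16* is the listed gene nearest to *Trp53*, 0.862 Mb away on chromosome 11, where *Lif* and 7 CC ligands also lie, the CC ligands at 12.4 to 14.1 Mb.

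**Figure D3:**
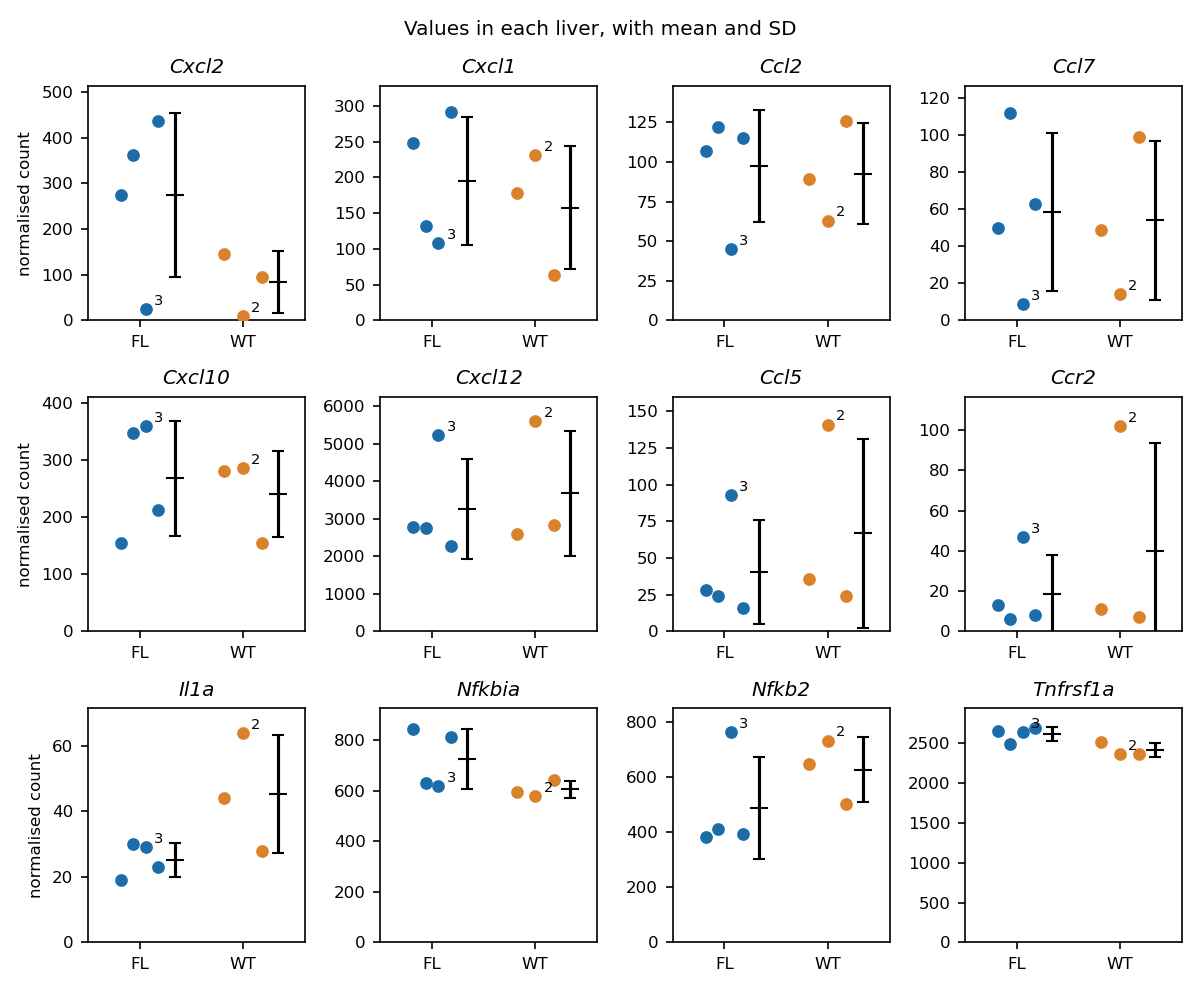
Normalised counts (linear axes from 0) in each FL liver (blue) and each WT liver (orange) for 12 genes, with mean and SD in black and FL replicate 3 and WT replicate 2 marked by their numbers. *Cxcl2*, *Ccl2* and *Ccl7* are lowest in the marked livers, *Ccl5*, *Ccr2* and *Cxcl12* highest in them, and *Tnfrsf1a* spans a narrow range.

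Only 3 of the 6 chemokine receptors were abundant enough to test, 1 higher and 2 lower in FL, and 0 were called. In bulk liver, fewer cells of a type and less RNA per cell cannot be told apart, and these receptors, *Ackr3* aside, are carried mainly by leukocytes. *Ccr2*, the monocyte receptor for *Ccl2*, had 13, 6, 47 and 8 normalised counts in FL and 11, 102 and 7 in WT. WT replicate 2 was 11.3 times the mean of the other WT livers and FL replicate 3 was 5.22 times that of the other FL livers, the reverse of the pattern of its ligand *Ccl2*. The log2 fold change was -0.58 ± 0.99 (SE). *Cx3cr1*, the fractalkine receptor of monocytes, had 8, 4, 24 and 6 in FL and 5, 68 and 7 in WT. *Cxcr4*, the receptor of *Cxcl12*, had 10, 8, 24 and 12 in FL and 4, 33 and 11 in WT, with a log2 fold change of 0.08 ± 0.68 (SE). For both, as for *Ccr1* (6 and 17 in these livers, 0 to 2 elsewhere), the same livers were the 2 highest. *Cxcr2*, the neutrophil receptor of *Cxcl1* and *Cxcl2*, had 3, 0, 3 and 2 in FL and 10, 7 and 4 in WT. It was the only 1 of the 42 genes whose genotypes did not overlap (2.38%, against 4.67% of the 14851 genes in the table), and its exact two-sided permutation p of 0.0286 is the smallest that 4 against 3 livers allow. All FL values were at or below 3 counts, where counting error is large, and no fold is given. *Ackr3*, a scavenging receptor for *Cxcl12*, had 5, 3, 1 and 1 in FL and 12, 25 and 5 in WT, where FL replicate 1 equalled WT replicate 3 (exact permutation p = 0.0857). With no minimum on the level, the limma p before adjustment was 0.0120 for *Ackr3* and 0.0340 for *Cxcr2*, and the adjusted p of both was 1.00.

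Most marker sums below had WT replicate 2 and FL replicate 3 as their 2 highest livers, like *Ccr1*, *Ccr2*, *Cx3cr1* and *Cxcr4*. Single markers did not all follow. Both livers were above all 5 others for 9 of 12 macrophage and monocyte markers and 8 of 10 lymphocyte markers. The same held for 5 of 8 Kupffer cell markers and 10 of 12 proliferation genes. The Kupffer cell marker *Cd163* was lowest in both, at 140 in FL replicate 3 and 190 in WT replicate 2 against 380 to 576 elsewhere. Summed over 12 macrophage and monocyte markers, normalised counts were 4040 to 5353 in FL and 3771, 10030 and 3900 in WT, highest in WT replicate 2 and, among FL, in replicate 3. Over 10 lymphocyte markers they were 70, 74, 160 and 57 in FL and 74, 263 and 52 in WT, with *Cd8a* and *Ms4a1* at 0 in at least 1 liver, and over 8 Kupffer cell markers 4260 to 6395 in FL and 4753, 10090 and 4142 in WT. The stellate cell sum was 11773 in WT replicate 2 against 3089 to 4500 elsewhere, and the sum over 12 proliferation genes 1999 against 323 to 630. Of the 11773, *Col3a1* gave 4265 and *Col1a1* 1744, while *Hand2* had 140 there against 103 to 144 elsewhere. Both livers were above all 5 others for 6 of the 8 stellate cell markers. Neutrophil markers were near the floor, at 25 to 78 in FL and 48 to 86 in WT over the 6 of 10 in the table, with *Mmp8* and *Ngp* at 0 in at least 1 liver. Sinusoidal endothelium varied less (4854 to 5606 in FL, 4252 to 6201 in WT). For 5 of its 8 markers both livers were still above all 5 others, as for 2 of 6 neutrophil and 2 of 8 hepatocyte markers. The part of these cell types in the values above was not tested.

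For the cytokines, 5 were tested, 1 higher and 4 lower in FL, with a median log2 fold change of -0.33. *Il1a*, an alarmin released by dying cells, had 19, 30, 29 and 23 normalised counts in FL (25.3 ± 5.19, SD, n = 4) and 44, 64 and 28 in WT (45.3 ± 18.04, SD, n = 3). WT replicates 1 and 2 were above every FL liver and WT replicate 3 lay inside the FL range. Its log2 fold change of -0.77 ± 0.32 (SE) had an unadjusted limma p of 0.0464, an adjusted p of 0.999 and an exact permutation p of 0.0857, so it is not called. *Il1b*, 54.6 kb from *Il1a* and made by activated macrophages, had 21, 19, 29 and 17 in FL and 41, 65 and 17 in WT. The lowest values of both genotypes were equal, and the log2 fold change was -0.74 ± 0.44 (SE, interval 0.294 to 1.22-fold). Both interleukin-1 genes had WT replicates 2 and 1 as their highest livers. *Tnf*, the macrophage cytokine upstream of NF-kB, had 7, 6, 8 and 5 in FL and 4, 22 and 2 in WT, too low to test. WT replicate 2 was alone above 8. *Lif* behaved alike, at 30 in WT replicate 2 and 2 to 6 elsewhere. *Il33*, a nuclear alarmin of stromal cells, ranged from 16 to 40 in FL and from 19 to 52 in WT, again highest in the same pair of livers. *Il18* had 55 to 81 in FL and 49 to 78 in WT. *Csf1*, the macrophage growth factor, had 435, 389, 349 and 387 in FL and 507, 385 and 393 in WT. Its spread was small and FL replicate 3 and WT replicate 2 were the 2 lowest, with a log2 fold change of -0.13 ± 0.14 (SE, interval 0.733 to 1.14-fold).

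All 4 cytokine receptors were tested, 3 of them higher and 1 lower in FL, with a median log2 fold change of 0.05 and 0 called. *Tnfrsf1a* had 2646, 2485, 2640 and 2683 normalised counts in FL (2614 ± 87.7, SD, n = 4) and 2511, 2359 and 2359 in WT (2410 ± 87.8, SD, n = 3). FL replicate 2 lay below WT replicate 1 and the other FL livers lay above all WT livers. The log2 fold change was 0.12 ± 0.09 (SE), with the narrowest interval of the 35 genes, 0.941 to 1.25-fold. *Tnfrsf1b*, the receptor more typical of leukocytes, had 961 to 1389 in FL and 718 to 1404 in WT. Unlike the leukocyte chemokine receptors, it was lowest in WT replicate 2 (718) and FL replicate 3 (961). *Osmr*, the oncostatin M receptor, had 211, 170, 242 and 161 in FL and 229, 209 and 149 in WT, with a log2 fold change of 0.01 ± 0.21 (SE, interval 0.721 to 1.40-fold) and no liver apart. *Csf3r*, the granulocyte colony-stimulating factor receptor, had 46, 28, 62 and 25 in FL and 44, 113 and 26 in WT, highest in WT replicate 2. Of its exon sequence, 19.2% of 36-base stretches occur in other genes.

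Of the NF-kB genes, 5 were tested, 1 higher and 4 lower in FL, with a median log2 fold change of -0.12 and 0 called. Their standard errors, 0.14 to 0.26, lay below those of the ligands, 0.27 to 1.20. Sequence before the start sites of the feedback inhibitors *Nfkbia* and *Tnfaip3* and of *Nfkb2* is shown because all 3 hold NF-kB consensus matches, in capitals as above (the outermost of the starts listed for *Tnfaip3* and *Nfkb2*).
Nfkbia (chr12:55492648-55492827, minus strand): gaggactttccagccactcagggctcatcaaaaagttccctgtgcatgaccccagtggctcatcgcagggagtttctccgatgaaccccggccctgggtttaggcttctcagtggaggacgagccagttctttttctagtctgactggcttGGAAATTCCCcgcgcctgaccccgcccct
Tnfaip3 (chr10:19015411-19015590, minus strand): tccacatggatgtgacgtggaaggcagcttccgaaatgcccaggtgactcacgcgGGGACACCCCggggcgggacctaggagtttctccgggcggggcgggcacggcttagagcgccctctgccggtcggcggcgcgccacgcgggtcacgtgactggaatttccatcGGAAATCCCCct
Nfkb2 (chr19:46304557-46304736, plus strand): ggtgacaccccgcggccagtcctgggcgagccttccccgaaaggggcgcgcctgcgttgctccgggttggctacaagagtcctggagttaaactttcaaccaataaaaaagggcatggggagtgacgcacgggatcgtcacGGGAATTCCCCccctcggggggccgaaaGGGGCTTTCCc
*Nfkbia* had 846, 632, 618 and 813 normalised counts in FL (727 ± 119, SD, n = 4) and 595, 581 and 644 in WT (607 ± 33.1, SD, n = 3). FL replicates 1 and 4 were above all WT livers and FL replicates 2 and 3 fell inside the WT range. The log2 fold change was 0.25 ± 0.14 (SE), with a limma p of 0.124 before adjustment and an interval of 0.943 to 1.495-fold. *Tnfaip3*, which encodes the ubiquitin-editing inhibitor A20, had 173, 118, 129 and 137 in FL (139 ± 23.8, SD, n = 4) and 173, 180 and 155 in WT (169 ± 12.9, SD, n = 3). FL replicates 2, 3 and 4 were below all WT livers and FL replicate 1 equalled WT replicate 1. Its log2 fold change was -0.29 ± 0.16 (SE), with a limma p of 0.108 before adjustment and an interval of 0.631 to 1.06-fold. The inhibitors thus had fitted changes of opposite sign, neither of them past the threshold. *Nfkb2*, the p100 precursor of the alternative pathway, had 381, 411, 765 and 392 in FL and 648, 733 and 501 in WT. FL replicate 3 was highest of all livers and the other FL livers were below all WT livers (log2 fold change -0.41 ± 0.26, SE). *Nfkb1*, the p105 precursor, had 926 to 1299 in FL and 1424, 714 and 1237 in WT, with WT replicate 2 the lowest liver, and an interval of 0.680 to 1.47-fold. *Relb*, the partner of *Nfkb2*, had 298, 319, 428 and 251 in FL and 275 to 485 in WT.

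The adhesion molecules that NF-kB induces on endothelium followed WT replicate 2 and FL replicate 3. *Icam1*, which arrests neutrophils and other leukocytes, had 353, 255, 967 and 312 normalised counts in FL and 402, 750 and 322 in WT. FL replicate 3 was 3.15 times the mean of the other FL livers, and the genotypes overlapped (log2 fold change -0.18 ± 0.48, SE). *Vcam1*, the ligand of integrin VLA-4, had 303, 396, 493 and 363 in FL and 237, 967 and 276 in WT. Its highest liver was WT replicate 2, with a log2 fold change of -0.06 ± 0.46 (SE, interval 0.462 to 2.00-fold).

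Across the 42 genes, WT replicate 2 was the highest WT liver for 30 (71.4%, against 45.5% of all genes tested) and FL replicate 3 the highest FL liver for 25 (59.5%, against 35% of all genes tested). These 2 comparisons are not like for like, since the 42 include 7 genes too low to test. Both livers were above all 5 other livers for 21 of the 42, or 16 of the 35 tested (45.7%, where all genes tested gave the 23.9% above). Both were below all 5 others for 6, namely *Ccl2*, *Ccl7*, *Cxcl2*, *Cxcl13*, *Csf1* and *Tnfrsf1b*, which is 17.1% of the 35 tested against the 25.8% above. These shares describe 2 livers and carry no test. The ratios were largest for leukocyte receptors, at 17.0 and 6.00 for *Ccr1*, and smallest for *Cxcl2*, at 0.0826 in WT replicate 2 and 0.0672 in FL replicate 3. *Cxcl1* and *Ackr3* were among the genes that went in opposite directions. In WT replicate 2 they were above the mean of the other WT livers (1.92 and 2.94). In FL replicate 3 they were below the mean of the other FL livers (0.482 and 0.333). *Relb* went the other way, at 0.818 in WT replicate 2 and 1.48 in FL replicate 3.

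**Figure D4:**
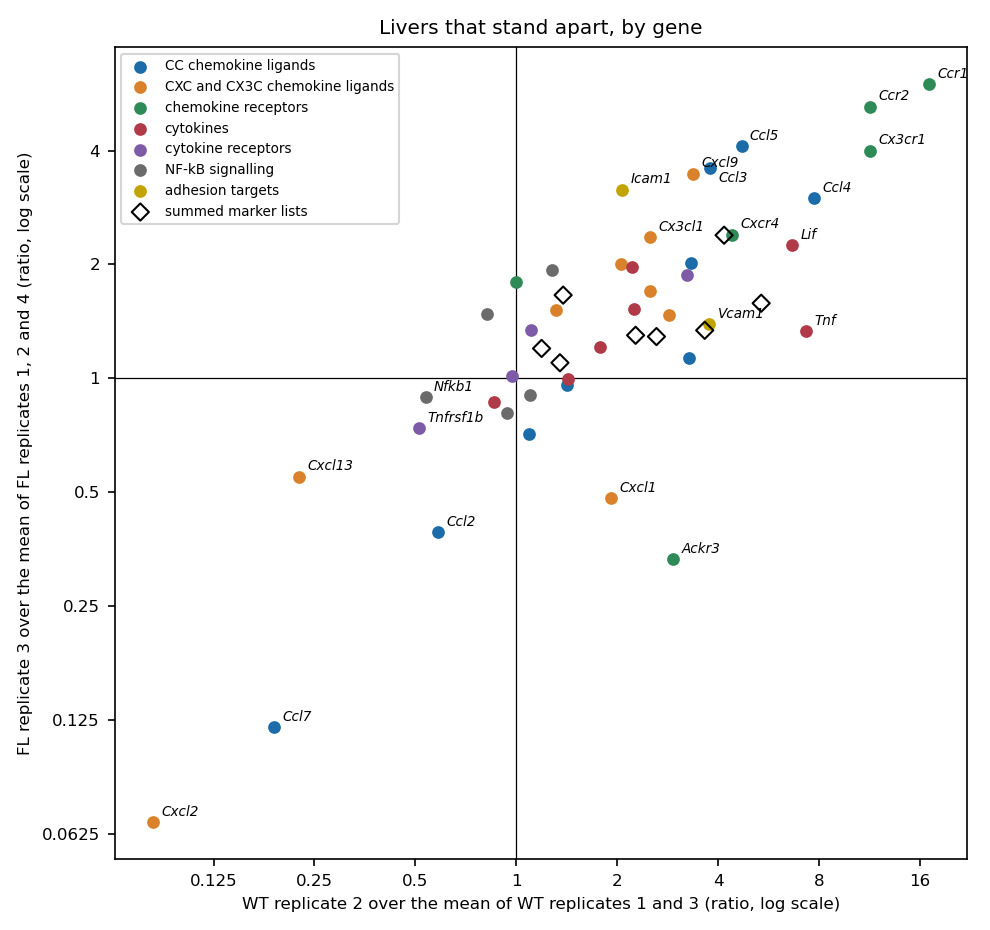
Each of the 42 genes by its value in WT replicate 2 over the mean of WT replicates 1 and 3 (horizontal, ratio, log scale) and in FL replicate 3 over the mean of FL replicates 1, 2 and 4 (vertical, ratio, log scale), with the summed marker lists as open diamonds. *Ccr1*, *Ccr2* and *Cx3cr1* lie at the upper right and *Cxcl2* and *Ccl7* at the lower left, while all diamonds lie above 1 on both axes.

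The comparison was repeated without WT replicate 2 and FL replicate 3, leaving 3 FL against 2 WT livers and 32 of the genes above the minimum. This choice followed from values of these livers and is an alternative, not a second result. Again 0 of the 32 were called, where 0.0487% of all genes tested in these livers were. At an unadjusted p under 0.05 stood 6 of 32 (18.8%), against 9.74% of all genes tested in these livers. *Cxcl2* was higher in all 3 remaining FL livers than in both WT livers (log2 fold change 1.56 ± 0.22, SE), with a limma adjusted p of 0.0830, the smallest of any listed gene under any setting. *Cxcl1* (0.99), *Vcam1* (0.46) and *Ccl6* (0.33) also had positive log2 fold changes, and *Cx3cl1* (-0.99) and *Nfkb2* (-0.53) negative ones. *Vcam1* and *Ccl6* had the opposite sign over all 7 livers. The median over the 32 genes was -0.10 on the log2 scale.

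**Figure D5:**
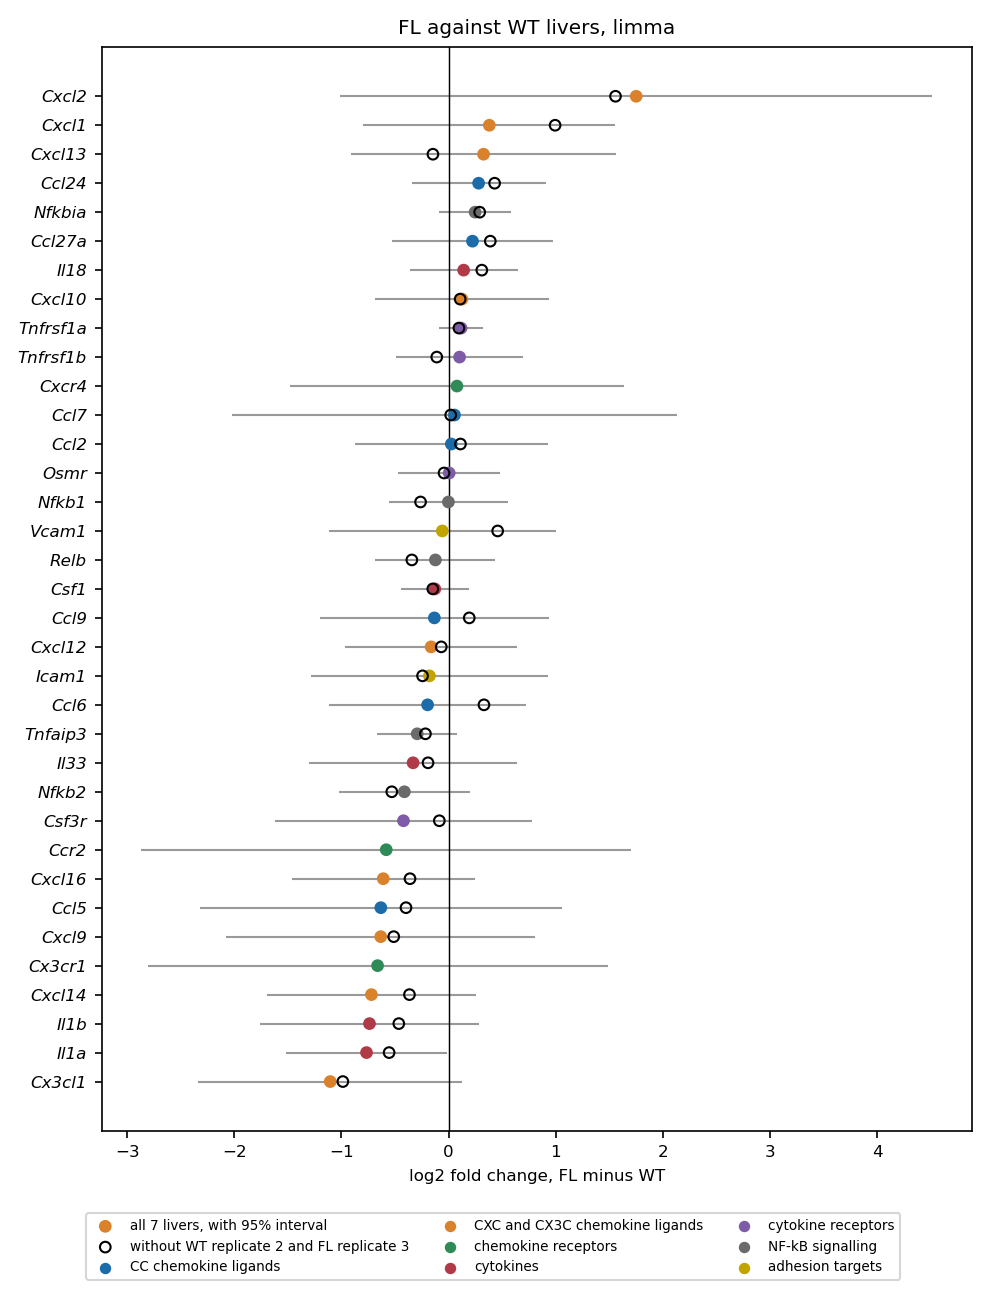
Limma log2 fold change, FL minus WT, of the 35 tested genes in order of size, as points coloured by role with 95% intervals for all 7 livers, and as open circles without WT replicate 2 and FL replicate 3 where the gene was still tested. Every interval but that of *Il1a* crosses 0, and *Cxcl2* is farthest right at 1.75 with the widest interval.

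Of 82 further genes of these pathways, listed by role, 74 were in the table and 64 were tested. Of the 64, 27 were higher and 37 lower in FL, the median log2 fold change was -0.04 and 0 were called. At an unadjusted p under 0.05 stood 3 (4.69%, against 3.2% of all genes tested). Genotypes did not overlap in the same 3 of the 64 (4.69%, against 4.76% of all genes tested). *Ccl22*, too low to test and so not counted, did not overlap either, at 2 to 4 in FL and 6 to 32 in WT. *Il1rap*, the accessory chain of the interleukin-1 receptor, had 1739, 1494, 1835 and 1733 normalised counts in FL and 1383, 1079 and 1292 in WT. All FL livers were above all WT livers (log2 fold change 0.45 ± 0.12, SE, unadjusted limma p 0.00730, adjusted p 0.999). *Bcl3*, a nuclear partner of NF-kB p50 and p52, had 1528, 1600, 1529 and 1580 in FL and 1527, 1028 and 1006 in WT, so that the genotypes were apart by a single normalised count (log2 fold change 0.42 ± 0.16, SE). *Ccl25*, a gut and thymus chemokine, had 52, 44, 56 and 61 in FL and 33, 38 and 42 in WT, without overlap (log2 fold change 0.49 ± 0.20, SE). The next smallest p-values belonged to *Ccrl2* (-0.49), *Ticam1* (0.25) and *Tab1* (-0.24), log2 fold changes whose genotypes overlapped.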

How the data were processed

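Polyadenylated liver RNA of 4 FL and 3 WT mice, 1 stranded library each, was sequenced as 36-base read pairs. Per the submitters' processing notes, the authors aligned reads with TopHat2 2.0.13 and Bowtie2 2.2.6.0. The study names HTSeq 2.2.4.0 for the counting, while the labels also name featureCounts, so the tool behind these counts is uncertain. The counts were divided by DESeq2 size factors in R 3.4.2. The authors rounded the normalised counts to whole numbers before they were deposited, and these values were treated as a score, since a count model needs raw counts. The study's count model was therefore replaced by limma. Positions and symbols came from GENCODE vM21 (GRCm38), which named 14839 of 14851 identifiers. The 120 identifiers on several rows had identical values and were kept once, and 0 columns were left out.

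FL and WT were compared with limma 3.58.1 in R 4.3.3 (mean-variance trend) after adding 1 and taking log2, in the 12545 genes whose mean reached 10. P-values were corrected over all of them by the Benjamini-Hochberg method at 0.05, and fold changes on this scale understate those of low genes. Single genes had exact two-sided permutation tests over the 35 ways of dividing the 7 livers, where the smallest p is 0.029. The script was tested on simulated data. Simulated livers varied independently, unlike WT replicate 2 and FL replicate 3, so this does not show how the test behaves on these livers. Estimated reads, from the spacing of low values, were 11.9 to 19.5 M per liver, and intervals from them would cover counting error only. Genotypes came from the labels, each liver being 1 mouse.

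Values in every liver were given for 17 members chosen for their roles (of which 1 was not in the table), for any member called or without overlap, for the 5 with the largest change and the 5 with the smallest p, and a further pathway gene was named if among the 6 smallest p-values. Other members shown liver by liver, and the pathway gene *Ccl22*, were chosen after their values were seen. Members and lists were chosen with earlier results of these data known. Alternatives varied the pseudocount (0.5, 5), the minimum level, the scaling, the variance model, the weights, a replicate block and the livers used. Sequences and motifs were read from RefSeq promoters (GRCm38.p6), from 250 bases before to 50 after each start.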

Additional observations from a re-analysis of the deposited data

Results flagged for a closer look

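Single livers far from the others of their genotype were sought among the 4 FL livers, as a gap to the nearest liver that was too large a share of the range by Dixon's criterion at 95%. Of 43 genes and marker sums examined, 9 met it, where chance flags about 1 in 20, or 2.1 here, and genes of 1 liver are not independent. All 9 were the highest value of FL replicate 3. The genes were *Ccl5* (93 normalised counts), *Ccl9* (697), *Cxcl12* (5229), *Ccr2* (47), *Nfkb2* (765) and *Icam1* (967). The sums were those of the macrophage and monocyte markers (5353), the lymphocyte markers (160) and the stellate cell markers (4500). The criterion was applied to the 4 FL livers only, and the 3 WT livers, WT replicate 2 among them, were not examined by it. The low *Cxcl2* of FL replicate 3 (24) did not meet it, because the other FL livers were themselves spread from 274 to 436.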

How the results depend on the processing

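Under all 19 alternatives, 0 listed genes and 0 further pathway genes passed the threshold. The number of all genes called, 2, became 0 with a pseudocount of 5, with at least 10 in every liver, with a mean of at least 50, without the variance trend and with the replicate block, 1 with quantile normalisation, 5 with array weights and 6 without both WT replicate 2 and FL replicate 3. Leaving out 1 liver at a time gave 0 to 5 genes, 0 listed genes and a median log2 fold change of the listed genes of -0.32 to 0.08. The positive end came without WT replicate 2. The cause was not tested.

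Deviations of same-numbered livers had correlations of 0.438 for replicate 1, -0.483 for replicate 2 and -0.661 for replicate 3. These values cannot show whether livers were paired by number, because WT replicate 2 and FL replicate 3, which stood apart, have different numbers. Outside the replicate block, the numbers are used as names only. With the replicate block, 0 genes were called (110 at an unadjusted p under 0.05, against 401 without it), 0 listed genes were called and their median was -0.08.

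Of the 331 values recomputed for the 18 tested genes given liver by liver under the stated rule, 28 changed sign, in 9 of the genes. *Ccl2* became -0.004112 with a common upper quartile, -0.042 with array weights and -0.087 with the replicate block. *Osmr* became -0.024 with a common upper quartile and -0.042 without both livers, *Cxcr4* -0.001091 with a pseudocount of 5, and *Ccr2* 0.12 with array weights. *Vcam1* became 0.43 with array weights and 0.46 without both livers. Leaving out 1 liver gave ranges of -0.22 to 0.36 for *Ccl2*, -1.29 to 0.55 for *Ccr2*, -0.18 to 0.75 for *Cxcl1* (0.99 without both livers), -0.17 to 0.36 for *Cxcl10*, -0.42 to 0.18 for *Cxcl12*, -0.59 to 0.79 for *Cxcr4*, -0.60 to 0.17 for *Icam1*, -0.18 to 0.13 for *Osmr* and -0.43 to 0.58 for *Vcam1*. None of these 9 was past the threshold under any setting. Over all alternatives that tested it, *Cxcl2* ranged from 0.60 to 2.70 and *Il1a* from -1.06 to -0.41, the latter with array weights.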
